A study of Neotoma stephensi and Rattus norvegicus with 6 samples.

Results

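The S100 proteins are small calcium sensors with paired EF-hand loops that work as dimers and, once loaded with calcium, bind annexins, cytoskeletal proteins and other targets. In stratified squamous epithelium several of them are made in large amounts by differentiating keratinocytes, and most of their genes lie in a cluster beside the cornified envelope genes of the epidermal differentiation complex. The 10 S100 genes examined here were identified by gene symbol among the 15481 mouse genes to which the foregut reads were assigned. All 10 were found in the files. Of these, 7 had enough reads to be tested, while S100a8, S100a9 and S100a3 did not.

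Transcripts were measured in the nonglandular foregut (the fornix ventricularis) of 3 Stephens' woodrats (Neotoma stephensi) and 3 Sprague Dawley lab rats, all females. The woodrats were caught in the wild, fed juniper foliage and dissected the day after arrival, whereas the lab rats were purchased and kept for months on standard rat chow. The ages of the animals are not given, and the sample labels call all animals virgin although by the study's methods the woodrats' breeding history was unknown. The woodrat foregut houses a dense microbial community and that of the lab rat does not, but species, diet, origin and microbes differ together in this design and cannot be told apart.

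The libraries held between 5439642 and 7932637 assigned reads, and 3 reads, the smallest number taken as detectable, corresponded to between 0.355 and 0.585 CPM, the unit of abundance used here, in which reads are scaled to the size of the library after TMM normalization. A gene was called differentially abundant at a false discovery rate (FDR) below 0.01 in edgeR's quasi-likelihood F-test over all 12603 genes tested. By that threshold 20.0% of all tested genes were called, 9.71% as lower and 10.3% as higher in woodrats. Because reads of both species were assigned to mouse coding sequences, a species difference in abundance and one in how well reads matched the mouse gene cannot be told apart, and the levels of different genes are not compared with each other because gene lengths were not used here.

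All 15 markers of squamous epithelium on the list used here were present in every animal, among them the keratins Krt13 and Krt5 and the desmosomal protein Dsp. Of these 15 genes, 1 was higher in woodrats (Krt4, log2 fold change 3.34) and 1 was lower (Ivl, involucrin, log2 fold change -4.96). These shares stand beside 10.3% and 9.71% of all tested genes. The median of the 15 was -0.60. Their summed CPM ran from 15691 to 45792 in the woodrats and from 17780 to 22443 in the lab rats, so the species overlapped. In the woodrats most of this sum was Krt13 (8378, 17506 and 19038 CPM in woodrats 1, 2 and 3) and Krt4 (4518, 10017 and 14101 CPM). The sum thus weighs these keratins most and is not a measure of squamous content as such. The 9 smooth muscle markers in the files summed to 125100, 60420 and 40908 CPM in woodrats 1, 2 and 3, against 11261 to 20508 CPM in the lab rats. Of the 9, 3 were called, all higher in woodrats, beside 10.3% of all tested genes. Synpo2 (log2 fold change 3.15) and Mylk (3.03) were the most different, and the median was 2.43. Woodrat 1 thus had the lowest squamous and the highest smooth muscle sum of the 6 animals. Of 9 glandular stomach markers 6 were in the files, and they summed to between 6.73 and 11.5 CPM in all animals. Of these 6, Pgc, Tff2, Gkn1, Gkn2 and Muc5ac had 0 reads in all lab rats. In the woodrats Pgc, Tff2 and Gkn1 had at most 1 read in any animal, and Gkn2 had 9, 0 and 1 reads. Muc5ac had 17, 12 and 33 reads in the woodrats and was called higher there. It passed the read filter only through the woodrats, which fixed its direction. These tissue values are repeated below where an S100 transcript moved with them. In bulk tissue, fewer cells of a type and less RNA per cell cannot be told apart. By the study's histology, of limited sample size, muscularis propria and total muscle took up more of the foregut wall in woodrats. The muscularis mucosae took up more of it in lab rats.

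Of the 7 tested S100 genes, 1 was called, S100a4, which was lower in woodrats, and none was called higher. This is a share near the 20.0% of all genes. The remaining 6 did not pass the threshold, and at an unadjusted p below 0.05 the number was 3 of 7, beside 49.7% of all tested genes. The log2 fold change, in which negative values mean lower abundance in woodrats, was negative for 6 of the 7, and its median over the 7 was -0.79, beside 0.03 over all tested genes. In 4 of the 7 (S100a14, S100a16, S100a11 and S100a4) every lab rat was above every woodrat, an order found in 27.4% of all tested genes, and in none was every woodrat above every lab rat, which held for 28.8%. The species did not overlap in 56.2% of all tested genes, so the 4 of 7 were near the background.

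**Figure D1:**
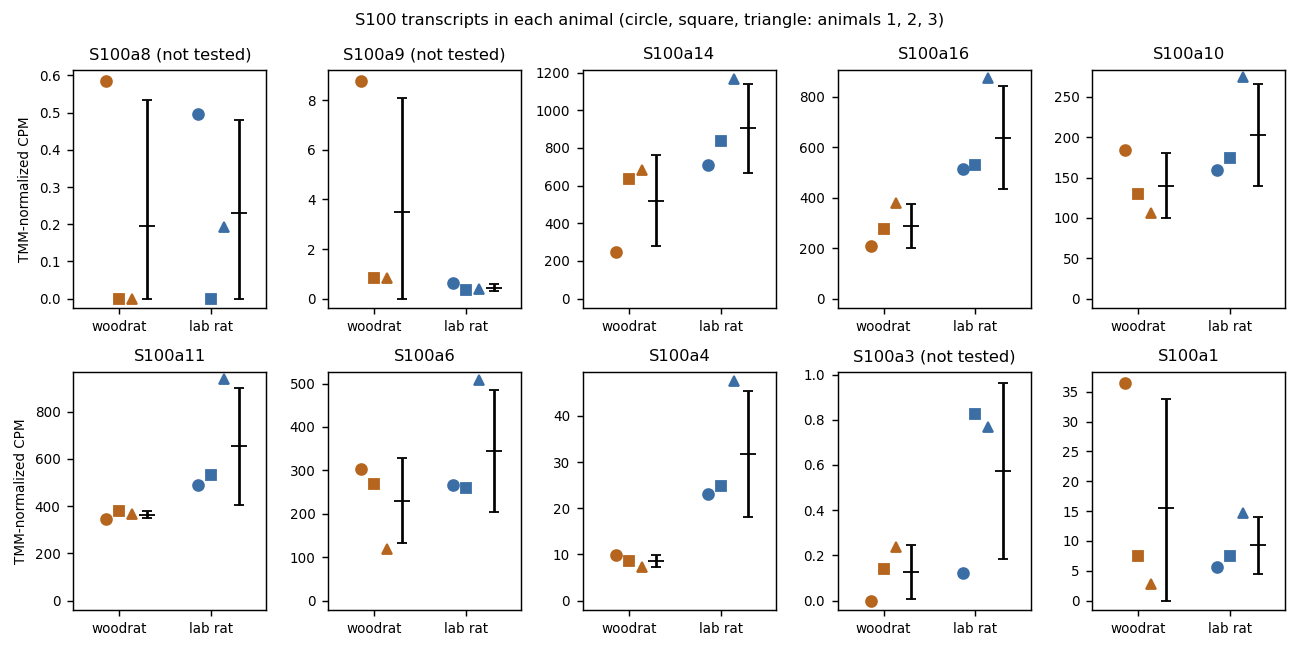
TMM-normalized CPM of the 10 S100 transcripts in each animal (circles, squares and triangles are animals 1, 2 and 3; horizontal ticks and bars are the mean and SD over 3 animals, with the bar cut at 0). S100a14, S100a16, S100a11 and S100a4 were higher in every lab rat than in every woodrat, and lab rat 3 was the highest animal for these 4 and for S100a10 and S100a6.

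S100a14 and S100a16 are epithelial members of the family, encoded by neighbouring genes. S100a14 (ENSMUSG00000042306.10) had 246, 634 and 683 CPM in woodrats 1, 2 and 3 against 710, 835 and 1168 CPM in lab rats 1, 2 and 3. The highest woodrat lay just below the lowest lab rat, and woodrat 1 lay far below the other two. Its log2 fold change was -0.79 (standard error 0.42, 95% interval from -1.76 to 0.17, FDR = 0.166), which did not pass the threshold. Without woodrat 1 it was -0.46.

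S100a16 (ENSMUSG00000074457.9) had 208, 278 and 378 CPM in the woodrats and 512, 529 and 872 CPM in the lab rats. The species were separated by a wider gap than for S100a14, and lab rat 3 stood above the other lab rats. The log2 fold change of S100a16 was -1.15 (standard error 0.35, 95% interval from -1.94 to -0.36, FDR = 0.0293). S100a16 and S100a4 were the 2 members that passed a threshold of 0.05 as lower, as 18.9% of all genes did (39.9% in either direction). At 0.01 S100a16 was called only with DESeq2 (FDR = 0.00406).

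For the proportions of the pair, no species difference passed the test. The log2 ratio of S100a14 to S100a16 reads was 0.76 ± 0.48 (SD, n = 3) for woodrats against 0.52 ± 0.13 for lab rats (two-sided exact permutation test, p = 0.5, adjusted p = 0.6 over 4 ratios). With 3 animals against 3 this test cannot go below 0.1. The woodrats were the more variable, from 0.25 in woodrat 1 to 1.19 in woodrat 2, a range that held all 3 lab rats.

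S100a10 and S100a11 are the annexin-binding members. S100A10 joins annexin A2 in a heterotetramer at the plasma membrane, and S100A11 binds annexin A1 and is cross-linked into the cornified envelope of keratinocytes. S100a10 (ENSMUSG00000041959.13) had 184, 129 and 106 CPM in the woodrats and 159, 174 and 274 CPM in the lab rats. The species overlapped, because woodrat 1 was above lab rats 1 and 2. The log2 fold change of S100a10, -0.54 (standard error 0.32, 95% interval from -1.26 to 0.19, FDR = 0.207), did not pass the threshold, and was -0.25 without lab rat 3.

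S100a11 (ENSMUSG00000027907.4) was the steadiest member in woodrats, at 347, 378 and 367 CPM, a coefficient of variation of 4.29% beside a median of 26.3% over all tested genes. The lab rats had 488, 532 and 938 CPM, all above the woodrats, with lab rat 3 well above the other two. The log2 fold change of S100a11 was -0.84 (standard error 0.32, 95% interval from -1.58 to -0.11, FDR = 0.0670) and was not called. It was -0.49 without lab rat 3.

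The annexin partners were also measured. Anxa2 had 385, 492 and 811 CPM in the woodrats against 1393, 1413 and 2161 CPM in the lab rats, with no overlap between the species. Anxa2 was not called (log2 fold change -1.56, standard error 0.39, FDR = 0.0142), but passed the threshold when woodrat 3 was left out (FDR = 0.00694) and with DESeq2 (FDR = 1.24e-04). Anxa1 had 188, 292 and 601 CPM in the woodrats against 603, 482 and 1000 CPM in the lab rats, so woodrat 3 reached into the lab rat range (log2 fold change -0.95, standard error 0.47, FDR = 0.141).

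The log2 ratio of S100a10 to Anxa2 reads was -1.06, -1.93 and -2.94 in woodrats 1, 2 and 3 against -3.13, -3.02 and -2.98 in lab rats 1, 2 and 3. Every woodrat was above every lab rat, although woodrat 3 was above them by little. The mean difference was 1.07 (two-sided exact permutation test, p = 0.1, the smallest this design allows, adjusted p = 0.2 over 4 ratios), and without woodrat 1 it was 0.61. The log2 ratio of S100a11 to Anxa1 overlapped between the species, at 0.18 ± 0.82 (SD, n = 3) for woodrats against -0.09 ± 0.22 for lab rats (exact permutation test, p = 0.6, adjusted p = 0.6). A ratio within an animal does not depend on how the libraries were scaled.

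**Figure D2:**
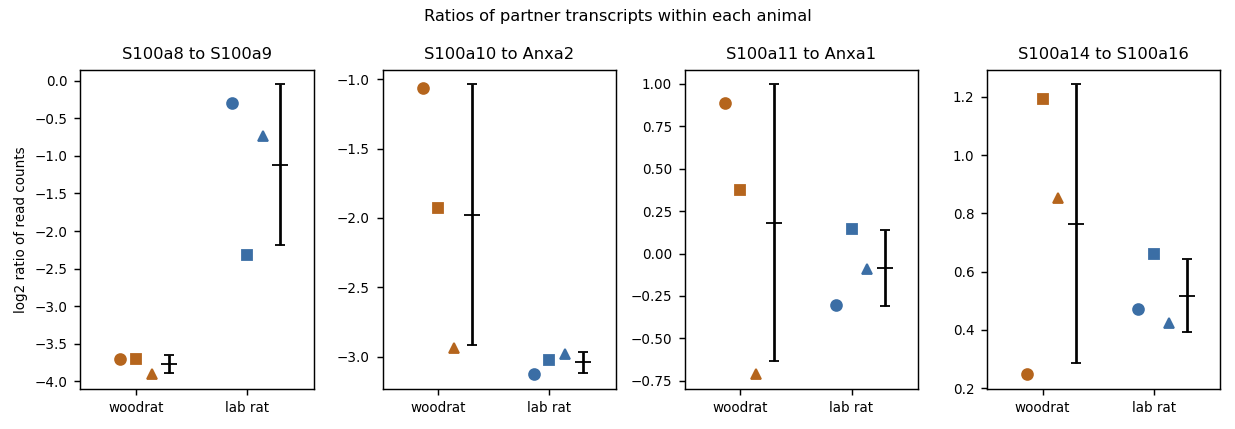
Log2 ratio of read counts of 4 pairs of partner transcripts within each animal (circles, squares and triangles are animals 1, 2 and 3; ticks and bars are the mean and SD over 3 animals; each panel has its own vertical scale). The species did not overlap for S100a8 to S100a9 and for S100a10 to Anxa2 but did for S100a11 to Anxa1 and S100a14 to S100a16.

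Annexins bind phospholipid membranes in the presence of calcium. Of the 12 annexin genes on the list, 11 were in the files and 10 were tested. Of these 10, 1 was called higher in woodrats (Anxa5) and 2 were called lower (Anxa8 and Anxa4), beside 10.3% and 9.71% of all tested genes. The other 7 were not called, and the median log2 fold change over the 10 was -0.59. Anxa8 had the largest difference, with 33.6, 152 and 192 CPM for the woodrats against 725, 727 and 855 CPM for the lab rats (log2 fold change -2.61, standard error 0.57, FDR = 0.00814). Anxa4 was lower by 1.14 on the log2 scale (log2 fold change -1.14, FDR = 0.00927) and Anxa5 was higher (log2 fold change 1.14, FDR = 0.00950), which is named here after its value was seen. The Anxa4 and Anxa5 calls held in 1 of the 6 fits that each left out 1 animal, the one without woodrat 3, and that of Anxa8 held in 2, those without woodrat 1 and without woodrat 3.

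S100a4 and S100a6 are found in stromal and immune cells as well as in epithelium. S100A4 binds nonmuscle myosin heavy chain IIA, the product of Myh9, and is known for its association with cell motility. S100a4 (ENSMUSG00000001020.8) had 51, 62 and 62 reads in woodrats 1, 2 and 3, or 9.95, 8.60 and 7.34 CPM. In lab rats 1, 2 and 3 it had 186, 150 and 247 reads, or 23.1, 24.8 and 47.5 CPM. The lowest lab rat was more than any woodrat by a margin larger than the whole woodrat range.

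S100a4 averaged 8.63 ± 1.31 CPM (SD, n = 3) over the woodrats against 31.8 ± 13.7 CPM over the lab rats, and was thus 3.68-fold higher in lab rats. The log2 fold change of S100a4 was -1.88 (standard error 0.36, 95% interval from -2.69 to -1.07, FDR = 0.00465, edgeR quasi-likelihood F-test). Without lab rat 3, the highest animal, it was -1.47 and the FDR was 0.00843. The call was lost without woodrat 2 (FDR = 0.0219), without woodrat 3 (FDR = 0.0102) or without lab rat 2 (FDR = 0.0112), while the log2 fold change in these 3 fits stayed between -2.03 and -1.77.

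Between the species, most leukocyte markers differed in the same direction as S100a4. Of the 8 markers of leukocytes other than neutrophils in the files, 6 were tested. Of these 6, 5 were lower in woodrats (Ptprc, Csf1r, Adgre1, Cd74 and Cd14), beside 9.71% of all tested genes, while Cd68 was not called (log2 fold change -0.09). Ptprc and Adgre1 were below 1 CPM in every woodrat. They passed the read filter (1 CPM in 3 animals) only through the lab rats, which fixed their direction. The sums of the 8 were 15.0, 28.7 and 43.4 CPM in the woodrats and between 205 and 308 CPM in the lab rats. Within the woodrats the order was the reverse of that of S100a4, which was highest in woodrat 1, where this sum was lowest, and lowest in woodrat 3, where the sum was highest. Cd74, the invariant chain of antigen-presenting cells, made up most of that sum in lab rats and was lower in woodrats (log2 fold change -4.04, standard error 0.52, FDR = 0.00116). None of the 8 was at 0 in all animals of a species. The part of leukocyte number in the S100a4 difference was not tested.

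Fibroblast markers ran both ways. Of the 8 tested, 6 had a negative and 2 a positive log2 fold change, with a median of -0.26. Fn1 (log2 fold change 4.22) and Thy1 (1.75) were called higher in woodrats and Dcn (-1.41) was called lower. Of all tested genes, 10.3% were called higher and 9.71% lower. Lum was lower in every woodrat than in every lab rat but was not called (log2 fold change -1.48, FDR = 0.0436). The sums ran from 2357 to 5050 CPM in the woodrats and from 2142 to 2690 CPM in the lab rats. Fn1 alone had 2446, 2574 and 843 CPM in woodrats 1, 2 and 3. The part of fibroblasts in the S100a4 difference was not tested. Among the 83 tested genes of the other lists, the 2 whose log2 CPM most resembled that of S100a4 over the 6 animals were Bsg (Pearson r = 0.987), a membrane protein that S100A9 binds, and Cacybp (r = 0.958), the calcyclin-binding protein that S100A6 binds. These correlations are given without a test, since all animals of a species share their origin, diet and species.

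S100a6, or calcyclin, is bound by the product of Cacybp. S100a6 (ENSMUSG00000001025.7) had 303, 268 and 120 CPM in the woodrats and 267, 259 and 507 CPM in the lab rats. The species overlapped, with woodrat 3 lowest and lab rat 3 highest. Its log2 fold change was -0.58 (standard error 0.42, 95% interval from -1.53 to 0.37, FDR = 0.295), and it was -0.19 without lab rat 3 and -0.27 without woodrat 3.

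S100a1 is best known from striated muscle, where its protein binds the sarcoplasmic reticulum calcium pump and the ryanodine receptor. S100a1 (ENSMUSG00000044080.9) had 187, 54 and 23 reads in woodrats 1, 2 and 3, or 36.5, 7.49 and 2.72 CPM, and 46, 45 and 76 reads in lab rats 1, 2 and 3, or 5.70, 7.44 and 14.6 CPM. The woodrats were thus spread on both sides of the lab rats, 13.4-fold from the lowest to the highest. S100a1 was the only one of the 7 with a positive log2 fold change, of 0.74 (standard error 0.82, 95% interval from -1.14 to 2.61, FDR = 0.499), and without woodrat 1 the value was -0.85 (FDR = 0.275). Woodrat 1 also had the highest striated muscle marker sum, with 715 CPM beside 377 and 357 CPM in the other woodrats and between 118 and 168 CPM in the lab rats, and the highest smooth muscle sum. Almost all of that sum was Ckm and Actn2, with 330 and 378 CPM in woodrat 1. Of the 4 tested striated muscle markers, only Ckm was called, as higher in woodrats (log2 fold change 3.11), as were 10.3% of all tested genes. Myh2, Mylpf and Tnnt3 had the opposite order, with each lab rat above all woodrats (Tnnt3 log2 fold change -2.06, FDR = 0.0321, not called), and Myh2 had between 1 and 14 reads in every animal. The part of muscle content in the S100a1 values was not tested.

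S100a8 and S100a9 encode the subunits of calprotectin, an antimicrobial zinc- and manganese-binding complex that fills neutrophils and is induced in stressed or inflamed squamous epithelium. S100a8 was scarce in all animals, and S100a9 in all but woodrat 1. S100a8 (ENSMUSG00000056054.9) had 3, 0 and 0 reads in woodrats 1, 2 and 3 against 4, 0 and 1 reads in lab rats 1, 2 and 3. A count of 0 allows up to 0.416 CPM in woodrat 2, 0.355 CPM in woodrat 3 and 0.496 CPM in lab rat 2. These floors cover counting error only, and a difference in S100a8 was not detectable at this depth.

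S100a9 (ENSMUSG00000056071.11) had 45, 6 and 7 reads in woodrats 1, 2 and 3, or 8.78, 0.832 and 0.828 CPM, and 5, 2 and 2 reads in lab rats 1, 2 and 3, or 0.620, 0.330 and 0.385 CPM. The 3 woodrats were above the 3 lab rats, but woodrats 2 and 3 were above lab rat 1 by 1 or 2 reads, while woodrat 1 was 10.6-fold above the lowest woodrat. S100a9 was below the read filter. In a fit without that filter, made for these genes after the data were seen, its log2 fold change was 2.82 (FDR = 0.0555) and it was not called.

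The neutrophil markers ran both ways in woodrat 1. Of the 13 on the list, 9 were in the files and 3 were tested, and their sum was 8.0 CPM in woodrat 1, the lowest of the 6 animals, beside 17.5 and 40.3 CPM in the other woodrats and between 11.2 and 23.8 CPM in the lab rats. Mpo, Camp, Ltf, Csf3r, Mmp8 and Itgam had 0 reads in woodrat 1, and Camp, Ltf and Mmp8 also had 0 reads in all 3 lab rats. Cd177, a neutrophil surface protein, had 23, 67 and 231 reads in woodrats 1, 2 and 3 against 0, 0 and 1 in the lab rats and was called higher in woodrats (FDR = 0.00180), although not without lab rat 3 (FDR = 0.0175). Mmp9 had 9, 2 and 9 reads in the woodrats and at most 1 in a lab rat, and its CPM was highest in woodrat 1. Itgam, with 0, 5 and 3 reads in the woodrats, was called lower there (log2 fold change -3.65, FDR = 0.00513). With 1 animal left out, that call held only without woodrat 1 (FDR = 0.00738). Cd177 and Itgam each passed the read filter only through the species in which it was higher, which fixed its direction. Cxcr2, the other marker tested, was not called (log2 fold change -1.09, FDR = 0.201). The part of neutrophils in the S100a9 values was not tested. Elane, Ly6g, Ngp and Retnlg were not analysed here. The log2 ratio of S100a8 to S100a9 reads, with 0.5 added to each count, was lower in woodrats by 2.65 (log2 difference -2.65, two-sided exact permutation test, p = 0.1, adjusted p = 0.2), but it rests on 3 S100a8 reads in the woodrats against 5 in the lab rats and was -1.92 with 2 added to each count.

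The last member, S100a3, is a protein of the hair cuticle that the enzyme Padi3 citrullinates. S100a3 (ENSMUSG00000001021.11) had 0, 1 and 2 reads in woodrats 1, 2 and 3 against 1, 5 and 4 reads in lab rats 1, 2 and 3. All woodrats were below the smallest detectable number, and lab rats 2 and 3 were just above it. It was not tested, and in the fit without a filter it was not called (FDR = 0.210). Padi3 was also too scarce to be tested, with 0, 4 and 16 reads in the woodrats against 2, 0 and 0 in the lab rats.

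**Figure D3:**
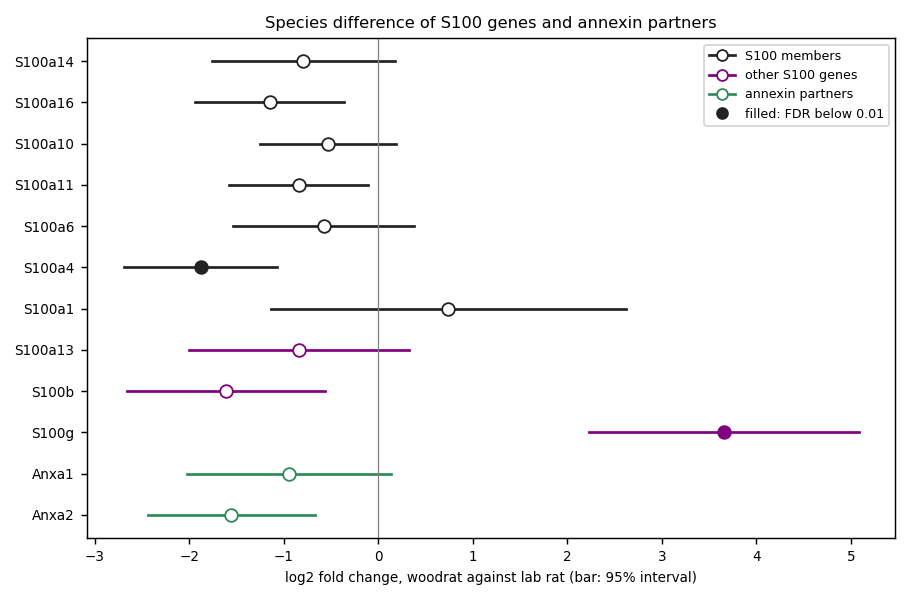
Log2 fold change, woodrat against lab rat, of the 7 tested S100 members, the 3 other tested S100 genes and the annexin partners Anxa1 and Anxa2 (circles are the edgeR estimates, bars the 95% intervals, and filled circles have an FDR below 0.01). S100a4 at -1.88 and S100g at 3.66 were past the threshold, and the intervals of S100a16, S100a11, S100b and Anxa2 also lay below 0.

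Within the woodrats some members were high where others were low, whereas within the lab rats the same animal was high for all of them. In woodrat 1, which had the lowest squamous marker sum and the highest smooth muscle sum, S100a14 was 1.08 below and S100a16 0.47 below the woodrat mean on the log2 scale (values of -1.08 and -0.47), whereas S100a10, S100a6 and S100a1 were above it by 0.40, 0.40 and 1.23. In woodrat 3, which had the highest squamous and the lowest smooth muscle sum of the woodrats, S100a14 and S100a16 were both 0.39 above the mean, and S100a10, S100a6 and S100a1 were at -0.40, -0.95 and -2.52. S100a11 and S100a4 stayed closer to their woodrat means, between -0.23 and 0.21. In lab rat 3 all 7 transcripts were above the lab rat mean, by 0.37 for S100a14 to 0.66 for S100a1, and in lab rats 1 and 2 all 7 were below it. Lab rat 3 also stood apart in other genes and had the lowest TMM factor (0.837). Its Sfn was 2343 CPM beside 1216 and 1214 CPM in lab rats 1 and 2, but its Dsp was 904 beside 1653 and 1556 CPM. These other genes thus moved in both directions. Whether the rise of all 7 in lab rat 3 was particular to the S100 transcripts was not tested, nor was its source. These are descriptions of 3 animals of each species, with no test.

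**Figure D4:**
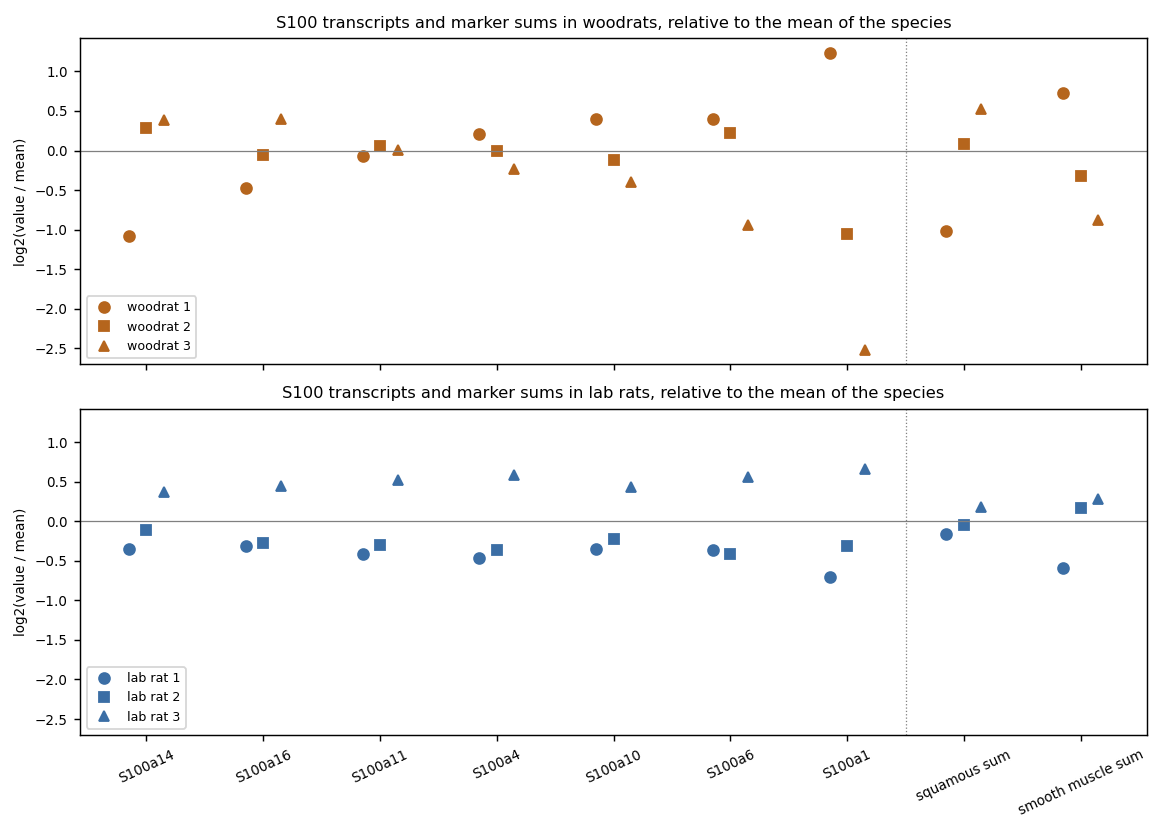
Log2 of each value over the mean of the same species, for the 7 tested S100 transcripts (CPM) and, right of the dotted line, the summed CPM of squamous epithelium and smooth muscle markers (circles, squares and triangles are animals 1, 2 and 3). Woodrat 1 lies lowest for S100a14, S100a16 and the squamous sum and highest for S100a10, S100a6, S100a1 and the smooth muscle sum, whereas lab rat 3 lies highest for every transcript.

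The mean log2 CPM of the 15 squamous markers, which weighs each gene alike, was 7.07, 8.46 and 9.52 in woodrats 1, 2 and 3. It was 9.22, 9.28 and 8.91 in lab rats 1, 2 and 3. By this mean lab rat 3 was the lowest lab rat, whereas by the summed CPM it was the highest. The S100 values were therefore also taken relative to this mean in each animal, an alternative chosen after the data were seen. On that scale the species overlapped for all 7 transcripts. The species difference was -0.11 for S100a14 and -0.36 for S100a16, and close to 0 for S100a11 (0.01). It was 0.26 for S100a10, 0.17 for S100a6 and 0.89 for S100a1. For S100a4 the relative level was -5.20 ± 1.44 (SD, n = 3) for woodrats against -4.21 ± 0.77 for lab rats. The difference, -0.99, was smaller than the SD of the woodrats, but that SD includes the spread of the marker mean. S100a4 itself had a coefficient of variation of 15.2% in the woodrats. The marker mean also holds Krt4 and Ivl, which were themselves called between the species. The overlap on this scale is thus no test of epithelial content, whose part in the S100 differences was not tested.

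The files held 5 of 8 other S100 genes on a further list, and 3 of these were tested. Among these, S100g, which encodes the calcium-binding protein calbindin-D9k of calcium-transporting epithelia, differed most. It had 27.3, 7.90 and 33.0 CPM in the woodrats against 0.992, 1.65 and 2.89 CPM in the lab rats, so that the lowest woodrat was well above the highest lab rat. The log2 fold change of S100g was 3.66 (standard error 0.63, 95% interval from 2.23 to 5.08, FDR = 0.00319), the opposite direction to S100a4. The call was lost without lab rat 1 (FDR = 0.0135), lab rat 2 (FDR = 0.0149) or lab rat 3 (FDR = 0.0127), and the log2 fold change in the 6 fits that left out 1 animal ran from 3.28 to 4.11.

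S100b, a marker of glia, had 0.976, 0.832 and 0.947 CPM in the woodrats against 3.72, 2.97 and 1.73 CPM in the lab rats, from 5 to 30 reads an animal. Every lab rat was above every woodrat, but S100b was not called (log2 fold change -1.62, standard error 0.46, FDR = 0.0238). The 4 tested glia markers had the opposite order, with every woodrat above every lab rat, as had 28.8% of all tested genes. For Sox10 the gap was small (2.72 against 2.64 CPM). Gfap and Cdh19 were called higher in woodrats, beside 10.3% of all tested genes. Gfap had 1, 2 and 1 reads in the lab rats and passed the read filter only through the woodrats, which fixed its direction. With 1 animal left out, the Gfap call held in 2 and the Cdh19 call in 1 of the 6 fits. S100a13 overlapped between the species (log2 fold change -0.84, FDR = 0.221, or -0.25 without lab rat 3 and -1.42 without woodrat 1). S100a7a and S100z had at most 2 reads in any animal.

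The S100 fused-type proteins begin with an S100 domain that is followed by long repeats, and are built into the cornified envelope and keratin network of the outermost cells. All 7 on the list were in the files and 6 were tested. Of these, 3 were higher in woodrats (Flg, Flg2 and Rptn) and none was lower, beside 10.3% and 9.71% of all tested genes. The median log2 fold change was 2.21, beside -0.79 over the 7 tested S100 genes of the main list. Flg2 was below 1 CPM in every lab rat, so it passed the read filter only through the woodrats, which fixed its direction. Only 1 of the 3 calls was made with total counts. With a filter of 5 CPM in 3 animals 1 was made, but Flg2 (3.51, 1.66 and 5.21 CPM in the woodrats) was then not tested. Flg had 8.0, 24.8 and 171 CPM in woodrats 1, 2 and 3 against 0.661 to 2.11 CPM in the lab rats, and Rptn had 1909, 3263 and 9226 CPM against 77.2 to 616 CPM. Both were lowest in woodrat 1 and highest in woodrat 3, as was the squamous marker sum (15691, 33702 and 45792 CPM), whose part in these values was not tested. Flg2 had 18, 12 and 44 reads in the woodrats against 0, 0 and 1 in the lab rats (FDR = 0.00289), and its call was lost without any 1 of the lab rats (FDR from 0.0132 to 0.0140). The Flg call held without woodrat 1 or woodrat 3, and the Rptn call only without woodrat 1. Hornerin (Hrnr) had 186, 474 and 1283 CPM in the woodrats against 745, 468 and 169 CPM in the lab rats, so that the species overlapped (log2 fold change 0.49, FDR = 0.610), and the sign turned without woodrat 3 (-0.48). Tchh and Tchhl1 were not called, and Crnn was not tested, with 5, 11 and 24 reads in the woodrats against 1, 0 and 1 in the lab rats.

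Among 14 known targets, receptors and modifying enzymes of S100 proteins, 13 were tested. Of these 13, 4 were higher in woodrats and none was lower, beside 10.3% and 9.71% of all tested genes. Their median log2 fold change was 0.13. Ryr2, a ryanodine receptor, had 26.7, 18.4 and 12.3 CPM in the woodrats against 0.868, 0.496 and 0.385 CPM in the lab rats (log2 fold change 4.93, standard error 0.49, FDR = 5.20e-04). It passed the read filter only through the woodrats, which fixed its direction. Myh9, the myosin target of S100A4, had 5833, 3354 and 2573 CPM in the woodrats against 597, 836 and 518 CPM in the lab rats (log2 fold change 2.59, standard error 0.44, FDR = 0.00312), the direction opposite to S100a4. Ppfibp1, another S100A4 target, and Ahnak, which binds the S100A10 and annexin A2 complex, were the other two, with log2 fold changes of 1.88 and 1.59, and are named after their values were seen. The call of Ryr2 held whichever animal was left out, that of Myh9 only without woodrat 1 or woodrat 3, that of Ppfibp1 except without woodrat 2 or lab rat 1, and that of Ahnak in none of these fits (FDR from 0.0107 to 0.0371). All 4 were without overlap, the woodrats being above the lab rats, as was the smooth muscle marker sum, whose part in these differences was not tested. Ager, the receptor RAGE, had 2 to 8 reads in the woodrats against 21 to 29 in the lab rats (log2 fold change -2.51, FDR = 0.0133), and Tgm1 and Tgm3, the transglutaminases that cross-link envelope proteins, overlapped between the species.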

How the data were processed

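Stranded libraries were made by the authors from mRNA. Reads were trimmed (Trimmomatic), overlapping pairs were joined (FLASH), and the result was aligned by cross_match to the mouse protein-coding transcripts of GENCODE M7, while the submitters' processing notes name mm9. Tool versions were not given in the sources used here. The deposited values are raw counts of uniquely assigned reads per mouse gene for each animal, without normalization, and nothing says that any library was sequenced from pooled animals.

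Counts were joined by gene identifier, and a gene was kept if 3 or more animals had 1 CPM or more (12603 of 15481 genes). Itgam was below 1 CPM in every woodrat, and Cd177, Gfap and Muc5ac in every lab rat. Such genes were kept through the other species alone, which fixed their direction. In R 4.3.3 with edgeR 4.0.16, TMM factors (0.837 to 1.113), dispersions and the quasi-likelihood F-test of the method used before edgeR 4 were computed with species as the only term and a prior count of 0.125, with Benjamini-Hochberg adjustment over all tested genes, and genes were called at an FDR below 0.01. Standard errors are the log2 fold change divided by the square root of F. No pair of animals of a species agreed within sampling noise (chi-square per degree of freedom from 10.1 to 121.3). Ratios of partner genes, with 0.5 added to each count, were compared by exact permutation. On simulated counts the fit recovered 162 of 200 changed genes, with 3 false calls. These 200 were among 12603 genes, whereas 2516 of 12603 were called in the measured counts. The rate of missed or false calls in the measured counts was not tested.

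The S100 genes and the other lists were chosen with earlier results of these data known. By rule all S100 genes are named, the ratio partners, the fused-type proteins, the 2 genes most like S100a4, and of each further list the 2 called genes with the largest change; other marker, annexin and target genes were named after their values were seen. The alternatives were DESeq2 1.42.0, other scalings, filters, thresholds and quasi-likelihood methods, the replicate number as a block, and each animal left out in turn. No sequences or genome positions are given, since no reference was used here.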

Additional observations from a re-analysis of the deposited data

How the results depend on the processing

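The number of S100 genes called, 1 and lower in woodrats, was the same with other size factors, total counts, both other filters and the quasi-likelihood method of edgeR 4. It was 2, all lower, with DESeq2 and at an FDR below 0.05, and from 0 to 1 when 1 animal was left out. The number higher was 0 under each of these. A replicate block left 0 calls, and the FDR of S100a4 was 0.0252, the highest of its 13 alternatives, beside a lowest of 2.97e-05 with DESeq2. The labels do not say that the numbers pair the animals. Animals sharing a number deviated from their species means with correlations between -0.289 and -0.0881, and those with different numbers between -0.0641 and 0.318. With 3 animals per species these values cannot decide whether animals sharing a number also shared a batch. The cause of these changes was not tested.

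Over the 7 tested members and these alternatives, 85 values kept their direction and side of the threshold, 4 lost and 1 gained the call, and 1 reversed, S100a1 without woodrat 1 (-0.85, beside 1.25 without woodrat 3). Relative to the squamous markers, 3 reversed: S100a10 (0.26), S100a11 (0.00693) and S100a6 (0.17). The species difference in the log2 ratio of S100a11 to Anxa1 reversed without woodrat 1 (range -0.085 to 0.71). The other ratios kept their direction. With each animal left out in turn, the ranges were 0.61 to 1.55 for S100a10 to Anxa2 and 0.033 to 0.50 for S100a14 to S100a16. For S100a8 to S100a9 the range was -3.26 to -2.24, and the value with 2 added to each count, -1.92, lay outside it. Of 30 further genes called and checked, 5 (Ryr2, Ivl, Fn1, Cd74 and Ckm) kept an FDR below 0.01 in all 6 fits that left out 1 animal, 7 did with the block and all 30 with DESeq2, and none reversed in any alternative. Hrnr, not called, reversed without woodrat 3 (-0.48). The fused-type genes called, 3, numbered 4 without a filter, 1 with total counts and 1 with the 5 CPM filter, which left Flg2 untested. They numbered 0 with the block, and from 0 to 3 with 1 animal left out, 0 whichever lab rat it was. Over all genes, 716 were called with the block and 3916 with DESeq2, beside 2516. Depth limits S100a8, S100a9 and S100a3.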
